A study of Mus musculus with 6 samples.

Results

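The B lineage transcription factor genes are a group of 10 genes that encode DNA-binding factors and a coactivator with roles in specifying and maintaining B cells: Pax5, Ebf1, Pou2af1, Pou2f2, Spib, Bcl6, Irf4, Irf8, Ikzf1 and Foxo1. They were chosen by gene symbol through the NCBI gene numbers of the count table, and all 10 were found among its 24885 rows. The libraries came from mouse lymphoma cells that carry Eμ-Myc and Cre-ERT2+ together with miR-17~92 fl/fl: a Myc transgene under an immunoglobulin enhancer drives B lineage tumours, and a tamoxifen-inducible Cre can remove the miR-17~92 microRNA cluster from both of its floxed alleles. The del group (genotype del17-92, 3 libraries) came from such cells after 4 days with 250 nM 4-OHT and subcloning. The fl group (genotype floxed, 3 libraries) came from cells that kept the cluster, with a 4-OHT dose of 0 nM. Both carried the Myc transgene and the Cre, and both had been grown for 48 hours on irradiated feeder cells from Ink4a-null mouse embryos before RNA was taken. The promoter that drives the Cre, the number of clones and of tumours behind the libraries, and whether libraries of a group were separate cultures are not given, so p-values measure the spread between these libraries, which may be technical. Deletion, treatment with 4-OHT and subcloning cannot be told apart in this design.

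B cell identity is set by a network of transcription factors that act in sequence and then hold each other up. The E-protein genes, Ikzf1 (Ikaros) and Spi1 act early, EBF1 and FOXO1 then commit precursors, and EBF1 switches on PAX5, which keeps B cell genes active and genes of other lineages silent. The octamer factor OCT2 (Pou2f2) with its coactivator OBF1 (Pou2af1), the ETS factor SPIB and the interferon regulatory factors IRF4 and IRF8 act later, BCL6 is the repressor that germinal centre B cells depend on, and IRF4 is also needed for plasma cells. MicroRNAs of the deleted cluster act on transcripts that carry a match to bases 2 to 8 of the microRNA, its seed, mostly in the 3′ untranslated region (UTR).

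The mature microRNAs of the cluster that define its seed families are shown first, because matches to their seeds were sought in the member transcripts. They lie on the plus strand of chromosome 14 between positions 115043684 and 115044496 (RefSeq sequences, GRCm38.p6). Each is written 5′ to 3′ with the seed in capitals, and miR-17 and miR-20a share a seed, as do miR-19a and miR-19b.
mmu-miR-17-5p: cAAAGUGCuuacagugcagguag
mmu-miR-20a-5p: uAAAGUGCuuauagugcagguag
mmu-miR-18a-5p: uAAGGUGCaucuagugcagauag
mmu-miR-19a-3p: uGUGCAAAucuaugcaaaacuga
mmu-miR-19b-3p: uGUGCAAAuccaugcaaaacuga
mmu-miR-92a-3p: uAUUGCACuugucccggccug

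In the longest annotated 3′ UTR of each member (GENCODE M21, GRCm38), matches to these seeds were found in 3 of the 10 members, Foxo1, Ikzf1 and Irf4, and none in the other 7. Among all 9839 tested genes with a UTR, 33.9% held at least 1 such match. The 6 matches are shown with the seed match in capitals, all on the plus strand and all within a 3′ UTR exon.
Foxo1, miR-17/20a, chr3:52347136-52347158: ttggcaacagcggcaGCACTTTc
Foxo1, miR-92a, chr3:52350229-52350251: ccctgatgtgaagaaGTGCAATc
Foxo1, miR-19, chr3:52353136-52353158: tgagacaggagcctaTTTGCACt
Ikzf1, miR-92a, chr11:11770150-11770172: gtgtctggacaagttGTGCAATg
Ikzf1, miR-19, chr11:11771916-11771938: caatataaatgtcaaTTTGCACa
Irf4, miR-92a, chr13:30765741-30765763: ccttgctgaaacaaaGTGCAATg
Foxo1 held 3 matches in a UTR of 6240 bases, Ikzf1 2 in 3345 bases and Irf4 1 in 3309 bases. The last 2 Foxo1 matches lie past the end of the gene in the RefSeq table and belong to a longer GENCODE transcript. Only full matches to bases 2 to 8 in the longest UTR were sought. Shorter matches, coding sequence and other UTR forms were not searched. A match is a sequence feature and was not tested as a site of action.

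The libraries held 2121796 to 3738720 counts in del and 6554423 to 9580630 in fl, so depth went with group, and levels are given as CPM, counts scaled to the size of the library. Mir17hg, from which the cluster is processed, was at 167, 152 and 206 CPM in del and 252, 263 and 262 CPM in fl, but its 3′ tag lies past the microRNAs and does not check the deletion. The fl libraries went against the label of B lineage lymphoma cells in part. The listed B cell markers summed to 1250 to 1322 CPM in del and only 113 to 140 CPM in fl, with Cd79a, a chain of the B cell receptor, at 140 to 161 CPM in del and 7.11 to 9.18 CPM in fl, and Ms4a1 (CD20) at 1 and 2 counts over the groups. Epithelial markers summed to 0.474 to 1.32 CPM in del and 371 to 411 CPM in fl (3 of 3 tested lower, with Cdh1, Cldn3 and Cldn7 at 0). The fl sum rests on Krt18 and Epcam. Krt18 averaged 0.606 ± 0.425 CPM in del and 214 ± 14.02 CPM in fl, and Epcam 0.176 ± 0.304 and 170 ± 5.02 CPM (SD, n = 3 each). Krt8 averaged 4.24 CPM in fl with no read in del, and Krt19 had 2 reads in del and 1 in fl. Myeloid markers summed to 3146 to 3984 CPM in del and 432 to 477 CPM in fl (8 of 10 tested higher, 2 lower, with Mpo, S100a9 and Csf3r at 0), and dendritic cell markers to 177 to 183 CPM in del and 77.3 to 86.8 CPM in fl (3 of 6 tested higher, 2 lower, with Clec9a and Ccr9 at 0). The direction of the dendritic sum rests on Cd209a alone: without it the other 11 markers summed to 45.4 to 49.0 CPM in del and 77.1 to 86.6 CPM in fl. Fibroblast markers of the feeder layer summed to 13.4 to 33.2 CPM in del and 1.61 to 8.06 CPM in fl (2 of 3 tested higher, none lower, with Lum at 0). T and NK cell markers summed to 99.5 to 121 CPM in del and 38.6 to 42.8 CPM in fl (1 of 3 tested higher, 2 lower, with Cd3e, Cd8a, Nkg7 and Ncr1 at 0), but without Cd2 the other 10 summed to 2.43 to 6.06 CPM in del and 25.4 to 31.1 CPM in fl. All erythroid markers but Tfrc and Klf1 were at 0. What part any of these cell types has in the values below was not tested, and in bulk libraries fewer cells of a type and less RNA per cell cannot be told apart.

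All 10 factor genes were higher in del than in fl, by 1.93-fold for Foxo1 up to 367-fold for Ebf1. All 10 were tested, all 10 passed the threshold in the quasi-likelihood test of edgeR (Benjamini-Hochberg adjustment over 10260 genes), and none was lower. The groups differed across most of the transcriptome, so this count stands against a background of 65.1% of tested genes called in either direction and 32.5% of tested genes called higher in del. At least 2-fold higher were 9 of the 10, against 21.4% of tested genes, and at least 16-fold higher were 4 of the 10 (Ebf1, Spib, Pou2af1 and Pax5), against 3.14% of tested genes. The members, and the gene lists below, were chosen with earlier results of these data known. The shares over all tested genes are therefore given as background and not as a test. The del and fl values did not overlap for any of the 10, with del higher, against 34.2% of tested genes. The median log2 fold change was 3.33 over the members and -0.00346 over all tested genes. Summed, the 10 genes were at 1190 to 1335 CPM in del and 162 to 178 CPM in fl.

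**Figure D1:**
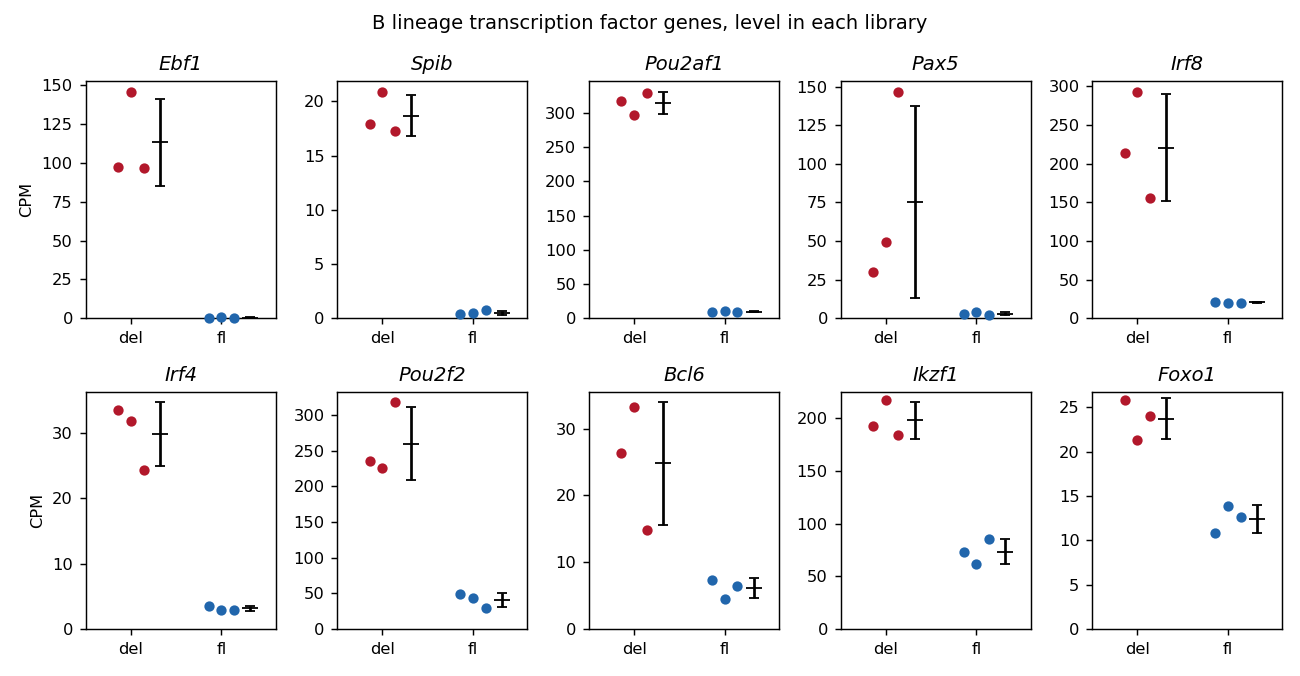
Level of each factor gene in CPM (vertical axes, each from 0) in the 3 del and 3 fl libraries (points), with the group mean and SD beside them (black, n = 3 each). Every del library lies above every fl library for all 10 genes, the del libraries are spread most widely for Pax5, and the lowest del library comes nearest to the highest fl library, as a ratio, for Foxo1 and Bcl6.

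Ebf1 and Pax5, the pair that commits cells to the B lineage, were low in fl and higher in del. Ebf1 (gene number 13591, chromosome 11, 44618100 to 45008096) encodes early B cell factor 1, which opens B cell genes in precursors. It was at 97.4, 145 and 96.5 CPM in the del libraries and at 0.229, 0.560 and 0 CPM in the fl libraries. The 7 Ebf1 reads of the whole fl group, against 1034 in del, leave its level in fl near the limit of counting, and the lowest del library was 172 times the highest fl library. The log2 fold change was 8.52 ± 0.41 (SE, adjusted p = 6.23e-07), which placed Ebf1 at rank 32 of the 10260 genes ordered from the highest rise. Without fl replicate 2 the fitted value was 9.53, and only 2 Ebf1 reads then remained in fl.

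Pax5 (18507, chromosome 4, 44524748 to 44710694) encodes the factor that holds B cell commitment. It was at 30.0, 49.3 and 147 CPM in del and at 2.87, 4.03 and 2.05 CPM in fl, so that the groups were apart and the del libraries differed widely among themselves. The log2 fold change was 4.64 ± 0.62 (adjusted p = 0.000199), and 3.66 without del replicate 3. In that library Pax5 was 3.70 times the mean of the other 2 del libraries, and no other gene among the 5968 with a mean of at least 20 CPM in del had as high a ratio, whose median was 0.971. This comparison was made after the values were seen. The other members did not share the pattern: in del replicate 3 Pou2f2 was at 1.38 and Pou2af1 at 1.07 times the mean of the other del libraries, and Bcl6 at 0.4998, Irf8 at 0.613, Irf4 at 0.746 and Ebf1 at 0.795 times.

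Ikzf1 and Foxo1, which act in precursors and are also used by other blood cells, had the smallest changes. Ikzf1 (22778, chromosome 11, 11684962 to 11772930), the Ikaros gene, was at 193, 217 and 184 CPM in del and at 72.8, 61.8 and 85.2 CPM in fl. It thus remained well expressed in fl, and its log2 fold change was 1.43 ± 0.16 (adjusted p = 5.41e-05). Foxo1 (56458, chromosome 3, 52268337 to 52350109), a forkhead factor restrained by PI3K and AKT signalling that activates the recombinase genes, was at 25.8, 21.3 and 24.1 CPM in del and at 10.8, 13.9 and 12.6 CPM in fl. The groups did not overlap, and the log2 fold change was 0.94 ± 0.16 (adjusted p = 0.000632).

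Both genes of the octamer pair rose. Pou2af1 (18985, chromosome 9, 51213690 to 51240079), which encodes the B cell coactivator OBF1, was at 317, 297 and 330 CPM in del and at 9.52, 10.6 and 8.36 CPM in fl. Its libraries agreed closely within each group, with a coefficient of variation of 5.13% in del and 12.0% in fl, and its log2 fold change of 5.04 ± 0.16 had the smallest adjusted p of the 10 (9.39e-08). Pou2f2 (18987, chromosome 7, 25087350 to 25180797), which encodes OCT2, the octamer-binding partner, was at 235, 225 and 318 CPM in del and at 49.4, 42.9 and 29.9 CPM in fl. It was present in every fl library, and its log2 fold change was 2.67 ± 0.22 (adjusted p = 1.09e-05).

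Among the ETS and interferon regulatory factor genes, whose products bind composite DNA elements together, all 3 rose. Spib (272382, chromosome 7, 44525995 to 44532087), an ETS factor of B cells and plasmacytoid dendritic cells, was at 17.9, 20.8 and 17.3 CPM in del and at 0.344, 0.448 and 0.733 CPM in fl. Its 12 reads over the fl group, against 176 in del, gave a log2 fold change of 5.17 ± 0.27 (adjusted p = 7.86e-07). Irf4 (16364, chromosome 13, 30749233 to 30766981), a factor of precursor, germinal centre and plasma cells, was at 33.4, 31.7 and 24.3 CPM in del and at 3.55, 2.91 and 2.93 CPM in fl. The log2 fold change of Irf4 was 3.23 ± 0.20 (adjusted p = 1.70e-06). Irf8 (15900, chromosome 8, 120736358 to 120756694), which serves B cells and also monocytes and dendritic cells, was at 214, 293 and 155 CPM in del and at 20.9, 20.3 and 20.2 CPM in fl. Irf8 was almost constant over the fl libraries, with a coefficient of variation of 1.76% against 31.3% in del, and its log2 fold change was 3.43 ± 0.23 (adjusted p = 3.40e-06). The myeloid marker sum given above moved in the same direction as these 3 genes, and the dendritic sum did so only with Cd209a. The part of either cell type in the result was not tested.

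Bcl6 (12053, chromosome 16, 23965050 to 23988866), the germinal centre repressor, was at 26.3, 33.2 and 14.9 CPM in del and at 7.34, 4.48 and 6.45 CPM in fl. The lowest del library was 2.03 times the highest fl library, the narrowest gap after that of Foxo1 (1.54 times). The log2 fold change was 1.99 ± 0.30 (adjusted p = 0.000412). In order of their change the 10 genes ran Ebf1, Spib, Pou2af1, Pax5, Irf8, Irf4, Pou2f2, Bcl6, Ikzf1 and Foxo1. The changes of Spib, Pou2af1 and Pax5 were closer to each other than their standard errors add up to, and so were those of Irf8 and Irf4.

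The members without a seed match spanned log2 fold changes of 1.99 to 8.52, and those with matches were Irf4 at 3.23, Ikzf1 at 1.43 and Foxo1 at 0.94. The 3 genes with matches included the pair with the smallest changes, and the 4 members with the largest changes had none. Whether a match bears on the change was not tested. Across the transcriptome the change went with transcript length: the median log2 fold change was -0.67 in the shortest of 5 equal groups of genes by longest annotated transcript and 0.80 in the longest group, where 59.7% of genes were called higher in del. Ebf1, Pax5, Pou2f2 and Foxo1 belong to the longest group, and the log2 fold change of Foxo1 (0.94 ± 0.16) lay within its standard error of the median of that group. Pou2af1 and Spib belong to the second shortest group, whose median was -0.25, and Irf8 to the middle group, at -0.05. The part that length has in the member values was not tested. In counts thinned to the depth of the shallowest library all 10 genes stayed higher in del, at adjusted p of 0.00134 or less.

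**Figure D2:**
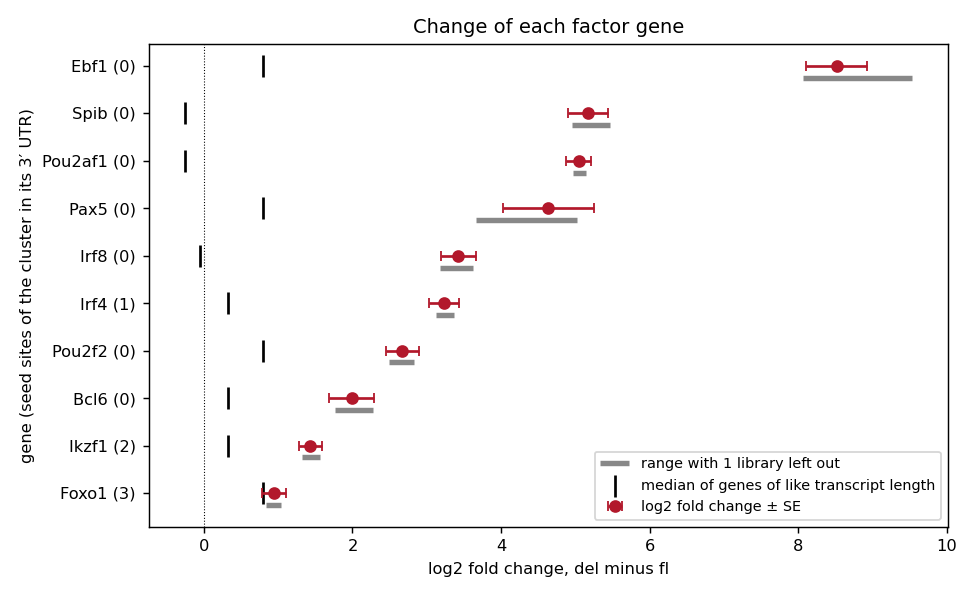
Log2 fold change of each factor gene, del minus fl, with its standard error (red), the range of values with 1 library left out (grey) and the median of all tested genes in the same of 5 groups by transcript length (black tick). The number after each name counts seed matches of the cluster in its 3′ UTR. Only Foxo1 lies within its standard error of the median for its length, and the ranges are widest for Pax5 and Ebf1.

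Ratios of 2 genes within a library do not depend on how libraries are scaled, and 6 pairs of related genes were compared in this way. The log2 ratio of Spib to Spi1, the gene of the related ETS factor PU.1, was -2.29, -2.25 and -2.35 in del and -7.07, -6.50 and -5.80 in fl. Spi1 itself was at 92.4 ± 6.58 CPM in del and 48.05 ± 4.98 CPM in fl (SD, n = 3 each; log2 fold change 0.94 ± 0.14, adjusted p = 0.000277). Ikzf1 and Ikzf3, the Ikaros and Aiolos genes, differed in the other direction: their log2 ratio was 1.48, 2.14 and 1.69 in del and 5.27, 4.50 and 5.43 in fl, with Ikzf3 at 58.4 ± 9.94 CPM in del and 2.14 ± 0.472 CPM in fl (SD, n = 3 each). The log2 ratio of Ebf1 to Pax5 was 1.69, 1.56 and -0.60 in del and -3.35, -2.73 and -4.86 in fl. The last of these has no Ebf1 read behind it and is set by the 0.5 added to each count, and the difference between the groups was 4.53, or 4.10 with 1 added. The log2 ratio of Pou2f2 to the widely expressed Pou2f1 (OCT1) was 2.14, 1.67 and 1.32 in del and 0.45, 0.39 and 0.18 in fl. For these 4 ratios the groups did not overlap, and each reached p = 0.1, the smallest that an exact two-sided permutation test of 3 against 3 libraries can give (0.15 adjusted over the 6 ratios).

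The ratio of Irf8 to Irf4 overlapped between the groups. Its log2 value was 2.67, 3.20 and 2.67 in del and 2.53, 2.78 and 2.76 in fl, a difference of 0.16 that was within the spread of the libraries (exact permutation p = 0.6). The log2 ratio of Foxo1 to its relative Foxo3 was 1.21, 0.84 and 1.51 in del and 0.79, 1.27 and 0.56 in fl, and these values overlapped too (difference 0.31, exact permutation p = 0.4). Foxo3 was called higher in del (log2 fold change 0.61 ± 0.23, adjusted p = 0.0416), a call that was lost under 9 of the alternative settings.

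**Figure D3:**
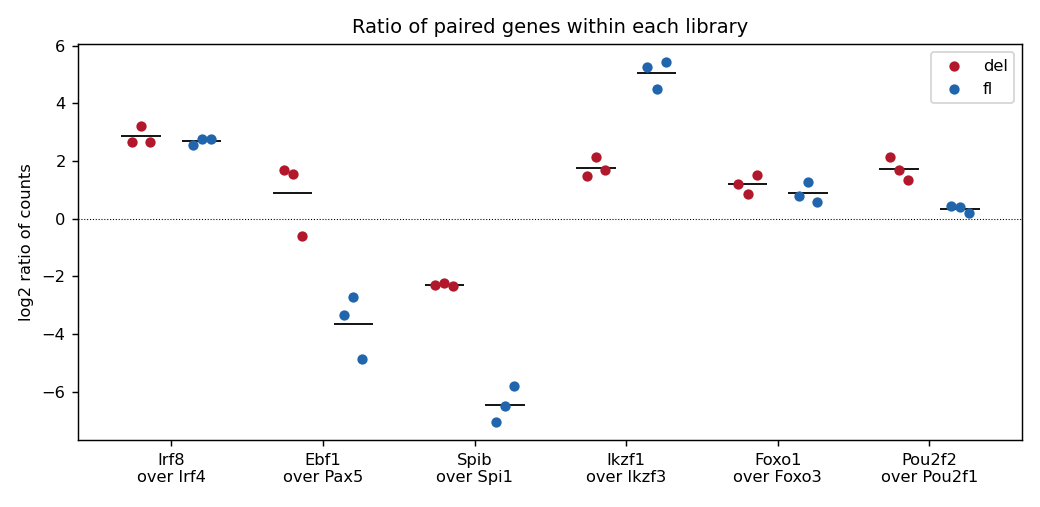
Log2 ratio of the counts of 2 genes (vertical axis, 0.5 added to each count) within each del (red) and fl (blue) library, with group means as black lines, for 6 pairs. The groups are apart for Ebf1 over Pax5, Spib over Spi1, Ikzf1 over Ikzf3 and Pou2f2 over Pou2f1, and overlap for Irf8 over Irf4 and Foxo1 over Foxo3.

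Other regulators of the B lineage moved with the members. Of 26 such genes 22 were tested, of which 20 rose, 1 fell and 1 did not pass, with a median log2 fold change of 1.92. Over all tested genes, 32.5% were called higher in del and 32.6% lower. Bach2, a repressor that holds back plasma cell differentiation, rose by 5.67 ± 0.21, and Ets1, an ETS factor of lymphocytes, rose by 5.36 ± 0.26 on the log2 scale. Sox4, a factor of early B cells, was at 107 ± 19.0 CPM in del and 3.48 ± 0.410 CPM in fl (SD, n = 3 each). Id3, an inhibitor of the E-proteins, was the gene that fell (log2 fold change -0.95 ± 0.15, adjusted p = 0.000469), while Tcf3, which encodes the E-protein E2A, rose by 1.45 ± 0.13. Lef1 and Zfp521 had no read in any library.

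Of 24 relatives of the members by gene family, 12 had enough reads to be tested, and 9 of these rose, none fell and 3 did not pass (median log2 fold change 0.93). The share called higher in del over all tested genes was 32.5%. Irf2, an interferon regulatory factor, rose by 1.79 ± 0.20 and Irf5 by 0.79 ± 0.12 on the log2 scale, besides Spi1 and Ikzf3 above. Irf1, Irf3 and Foxo4 did not pass, with log2 fold changes of 0.12 ± 0.14, -0.33 ± 0.14 and -0.44 ± 0.37, and Irf3 was called lower with upper-quartile scaling (adjusted p = 0.0186) and in thinned counts (adjusted p = 0.044). Among the untested relatives, Ebf2, Bcl6b, Foxo6 and Pax2 had no read in any library.

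Genes that the factors are known to control were listed by the factor, and several sit in more than 1 list. Of 22 genes activated by PAX5 or EBF1, 17 were tested and all 17 rose, with a median log2 fold change of 5.41. Among all tested genes 32.5% were called higher in del. Fcrla, an Fc receptor-like gene of B cells, was at 83.5 ± 2.69 CPM in del and 0.622 ± 0.0965 CPM in fl, and Cd79b, the partner of Cd79a in that receptor, at 171 ± 13.4 CPM in del and 2.12 ± 0.465 CPM in fl (SD, n = 3 each).

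Of 11 genes that PAX5 represses, 10 were tested, and 7 rose and 3 fell (median 1.30), where 32.5% of all tested genes were called higher in del and 32.6% lower. Among those that rose were the myeloid growth factor receptor gene Csf1r, at 128 ± 14.98 CPM in del and 6.88 ± 1.34 CPM in fl, and the chemokine gene Ccl9, at 198 ± 6.06 CPM in del and 1.06 ± 0.933 CPM in fl (SD, n = 3 each). Ccr2, a chemokine receptor gene, had 1025 reads in del and 1 in fl, a ratio of 2612 (95% counting interval 469 to 103200). Grap2, an adaptor of T cell signalling, had 1 read in del and 384 in fl, which makes fl 151 times higher (27.1 to 5953). Csf1r and Ccr2 are also myeloid markers, whose sum was higher in del.

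Of 11 genes activated by FOXO1, 10 were tested, and 8 rose, Cdkn1b fell and Klf2 did not pass. This stands beside 32.5% of all tested genes called higher in del and 32.6% called lower. The median of the list was 6.24. Setting Rag1 to the bound below leaves this median as it is. Rag1, a recombinase gene of antigen receptors, had 225 reads in del and none in fl, at least 191-fold higher against a floor of 3 counts over the fl group. Il7r, the receptor for the growth factor of B cell precursors, was at 149 ± 30.8 CPM in del and 0.428 ± 0.338 CPM in fl, and S1pr1, a receptor for lymphocyte exit from tissues, at 99.2 ± 9.20 CPM in del and 0.249 ± 0.0386 CPM in fl (SD, n = 3 each). Ccr7, a homing receptor gene, had 162 reads in del and 1 in fl, a ratio of 413 (95% counting interval 74.1 to 16300). Blnk, the adaptor downstream of the B cell receptor, rose by 2.71 ± 0.15 on the log2 scale. Cdkn1b, a cell cycle inhibitor gene, was at 25.5, 22.7 and 31.4 CPM in del and at 49.3, 60.3 and 51.2 CPM in fl.

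Of 14 genes that BCL6 represses, 13 were tested, and 8 rose, 2 fell and 3 did not pass (median 0.69). The shares over all tested genes were 32.5% higher in del and 32.6% lower. Gpr183, a positioning receptor gene, was at 53.9 ± 18.3 CPM in del and 0.151 ± 0.131 CPM in fl, and the survival gene Bcl2 at 69.5 ± 13.3 CPM in del and 12.0 ± 1.23 CPM in fl (SD, n = 3 each). Cd69, an activation marker, rose by 3.37 ± 0.23 on the log2 scale, and S1pr1 is in this list as well. Cdkn1b and the cyclin gene Ccnd2 were the genes that fell. Cd44, a surface receptor gene, did not pass but was called higher under 6 alternative settings, and Nfkb1, an NF-κB subunit gene, did not pass but was called lower under 3. Atr was among those that rose, and it was not called with upper-quartile scaling (adjusted p = 0.0515) or in thinned counts (adjusted p = 0.0865).

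Of 10 genes of the plasma cell programme 6 were tested, and 3 fell, 1 rose and 2 did not pass (median -0.66), where 32.6% of all tested genes were called lower in del. Xbp1, the factor of the secretory programme, was at 29.5 ± 3.77 CPM in del and 62.5 ± 5.96 CPM in fl, Sdc1 (CD138) at 15.2 ± 0.869 CPM in del and 32.6 ± 3.28 CPM in fl, and Fkbp11, a chaperone of secretory cells, at 5.91 ± 0.843 CPM in del and 42.9 ± 4.44 CPM in fl (SD, n = 3 each). Cd28 rose by 1.38 ± 0.30 on the log2 scale, and had too few reads to be tested in thinned counts or under the filter at 10 CPM. Prdm1, which encodes BLIMP1, the factor that ends the B cell programme, had 3 reads in del and 2 in fl, too few to compare.

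**Figure D4:**
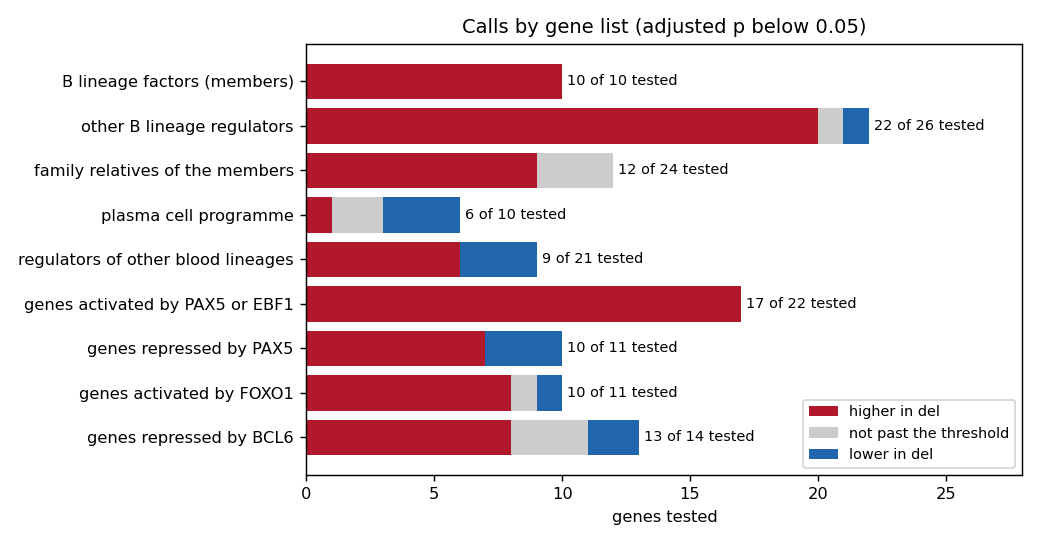
Number of genes per list (horizontal axis) that were higher in del (red), not past the threshold (grey) or lower in del (blue), with the number tested of the number listed beside each bar. The factor genes and the genes activated by PAX5 or EBF1 are entirely red, and the plasma cell programme has 3 genes lower and 1 higher.

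Motifs of some of the members' own products were sought on both strands in the promoters of the members. Each promoter ran from 250 bases before to 50 after the start (RefSeq, GRCm38.p6, 14 promoters for the 10 genes). No motif of PAX5 or BCL6 was sought. The EBF motif TCCCNNGGGA was found in the promoter of Foxo1, and in 0.904% of the 32851 promoters searched. These did not come from every chromosome. The ETS-IRF composite motif GGAANNGAAA was found in promoters of Pou2f2 and Bcl6, and in 2.71% of those searched. The IRF motif GAAANNGAAA was found in 1 promoter of Ebf1, and in 3.44% of those searched. These 4 stretches of 50 bases are shown because they pair a member's motif with another member's start, each on the strand of its gene with the motif in capitals.
Foxo1, EBF, plus strand, chr3:52268225-52268274: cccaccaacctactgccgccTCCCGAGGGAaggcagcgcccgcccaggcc
Pou2f2, ETS-IRF on the opposite strand, minus strand, chr7:25132551-25132600: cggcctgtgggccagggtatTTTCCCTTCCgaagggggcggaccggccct
Bcl6, ETS-IRF, minus strand, chr16:23981282-23981331: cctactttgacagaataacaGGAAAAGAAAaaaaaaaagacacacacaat
Ebf1, IRF on the opposite strand, plus strand, chr11:44617925-44617974: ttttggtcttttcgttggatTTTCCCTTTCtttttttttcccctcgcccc
The Ikaros core TGGGAA was found in promoters of Irf8 and Ebf1, and in 25.6% of the promoters searched. The octamer ATGCAAAT, the FOXO motif GTAAACA and the ETS motif AGGAAGT were in no member promoter, and in 1.73%, 3.65% and 9.35% of the promoters searched. None of the member matches overlapped one of another motif. A match is a description of the sequence and not evidence of binding.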

How the data were processed

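RNA had been primed with barcoded oligo-dT, pooled and made into strand-specific 3' libraries, per the labels' protocols. The authors deposited a table of raw read counts per gene for 6 libraries, and STAR, HTSeq and mm10 are named in the submitters' processing notes, with versions and settings not given in the sources used here. Of 24885 rows, 24052 carry an NCBI gene number, of which 23969 matched a symbol in the RefSeq table of GRCm38, the assembly of mm10. The test was that of edgeR 4.0.16 (R 4.3.3): filterByExpr by group (10260 genes kept), TMM factors, the robust quasi-likelihood test with group as the term, and Benjamini-Hochberg adjustment over all tested genes at 0.05. Standard errors were derived from the F statistic, and the test was run on simulated counts. In these simulated counts few genes changed, and the spread between replicates was set the same for all genes. Most tested genes were called in the real data, so the simulation does not cover a difference this broad. CPM used TMM-scaled library sizes computed from the deposited counts. Counting intervals are exact 95% Poisson intervals, and intervals and floors cover counting error only. Members and lists were chosen with earlier results of these data known. Besides the 10 members, text names came by rule: up to 4 genes per list by smallest adjusted p, the partners in ratios, the highest markers and the 3 profiles nearest to that of the member with the smallest adjusted p. Others were named after their values were seen, and some genes that the rule names are not reported here. Exons of Pax5, Bcl6 and Foxo1 overlap antisense genes that have no reads or no row in the table, and the labels do not say whether counting used the strand. UTRs came from GENCODE M21 transcripts of at least 50 UTR bases. Alternatives were DESeq2 1.42.0 (test and size factors), upper-quartile factors, no count filter, a filter at 10 CPM in 3 libraries, thinned counts, the replicate number as a block and leaving out each library.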

Additional observations from a re-analysis of the deposited data

How the results depend on the processing

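All 10 factor genes stayed higher in del and past the threshold under all 13 alternative settings (130 of 130 values), with the largest adjusted p at 0.00668 for Pax5 with no count filter in edgeR. The count of genes called over the whole table ran from 5488 with a filter at 10 CPM to 7286 with no count filter, against 6676, and with 1 library left out it ran from 6049 to 6479. Upper-quartile factors moved the median log2 fold change of all tested genes to -0.13 and that of Foxo1 to 0.82, so levels relative to other genes depend on the scaling to that extent. Pax5 ranged from 3.66 (without del replicate 3) to 5.02 and Ebf1 from 8.07 to 9.53 (without fl replicate 2) with 1 library left out, and no other member moved by over 1.5 times. The difference in the log2 ratio of Irf8 over Irf4 ranged from -0.0185 (without del replicate 2, a reversal) to 0.25 with 1 library left out, and 41 of 42 ratio values kept their direction. Of 208 counts over the gene lists, 200 stayed within 1.5 times. Among the listed genes counted as higher, Foxo3 and Cbfb each lost their call under 9 settings. Libraries with the same number did not deviate together (correlations of -0.0386 to 0.0825), and only replicate 1 of each group correlated best with its own number, so the numbers were not taken to pair them. With the replicate number as a block (replicate block), 6510 genes and all 10 members were called. Depth limits the fl values of Ebf1 and Spib, which rest on 7 and 12 reads.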

Other observations

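Regulators of other blood lineages also differed. Of 21 such genes 9 were tested, and 6 rose and 3 fell in del (median log2 fold change 1.23, against -0.00346 over all tested genes). Of all tested genes, 32.5% were called higher in del and 32.6% lower. The number that fell was 5 with no count filter, and also 5 in the DESeq2 test. Zeb2, a repressor used in lymphoid, myeloid and dendritic cells, was at 410 ± 45.9 CPM in del and 4.94 ± 0.338 CPM in fl, Klf4, a factor of monocytes that also acts in B cells, at 43.8 ± 8.998 CPM in del and 0.443 ± 0.394 CPM in fl, and Cebpb, a myeloid factor, at 88.7 ± 11.0 CPM in del and 25.5 ± 1.24 CPM in fl (SD, n = 3 each). Batf3, a factor of conventional dendritic cells, had 1 read in del and 349 in fl, which makes fl 137 times higher (95% counting interval 24.6 to 5410). Cebpa, Maf, Gata1 and Tbx21 had no read in any library.

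Among the tested genes outside the members with profiles nearest to that of Pou2af1, by distance between centred log2 CPM over the 6 libraries (prior count of 2, which draws low genes together), were Col27a1 at 0.324 and Rabgap1l at 0.325. Rabgap1l was at 48.5, 41.7 and 61.9 CPM in del and at 1.26, 1.46 and 1.17 CPM in fl.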
